A study of Mus musculus with 3 samples.

Results

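The genes described here are the protein-coding interleukin and interleukin receptor genes of the mouse, taken by symbol (Il followed by a digit) from the RefSeq table of GRCm38.p6, the same build as mm10, with Il7r and Il2rg left out. The rule gave 81 genes of the 21887 protein-coding genes on chromosomes 1 to 19, X and Y. They comprise 37 ligand genes, 38 receptor genes, 4 genes of soluble inhibitors and 2 genes of an enzyme induced by interleukin 4. PU.1 binding was mapped by ChIP-seq, in which DNA bound by a protein is immunoprecipitated and sequenced, in i660BM cells. This is a pro-B cell line of C57BL/6 background with a doxycycline-inducible PU.1 system, grown in medium with IL-7. Both PU.1 libraries, numbered 2 and 3, came from cells induced at 70 ng/ml doxycycline for 24 h, and the third sample of the series was input DNA, whose signal was not analysed here. No peak list of uninduced cells was analysed, so binding that needs the induction cannot be told apart from binding that does not. The labels do not say whether the line is a clone or whether the libraries came from separate cultures. Peak lists hold no transcript levels, so the pro-B label could not be compared with marker expression.

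Interleukins are secreted proteins that blood cells use to instruct each other, and most act through paired receptor chains that recruit Janus kinases and STAT factors. The IL-1 and IL-17 branches signal through other adaptors instead. PU.1, encoded by Spi1, is an ETS family factor that binds sequences built on a GGAA core and is best known for directing myeloid and B cell fates. Many cytokine receptor genes of those lineages are among its known targets.

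Replicate 2 had 74494 peaks and replicate 3 had 6169, and each peak carries the caller's score, read as minus 10 times the log10 of its p-value. Scores are not comparable between the libraries, and 2656 peaks of replicate 2 stand at 3100 or above. So many equal values are read here as a ceiling that hides their order, which the sources do not state, and scores above it exist, up to 3233. A shared region is a merged interval that holds peaks of both libraries, and there were 6133. The merged list of the authors held 49385 intervals. The window of a gene is its span plus 50 kb on each side, and each peak in a window was given to the nearest member. Numbers of peaks or regions that a gene had are those given to it, except where the window is named.

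Almost every member had PU.1 peaks nearby in the longer list, and about 1 in 2 had a region found in both libraries. A replicate 2 peak lay in the window of 80 of 81 members (98.8%, exact 95% interval 93.3 to 100.0), where 92.6% of all protein-coding genes had one. A shared region lay in the window of 40 of 81 (49.4%, 38.1 to 60.7), beside 37.8% of all protein-coding genes. A replicate 3 peak lay in the window of the same number, 40, beside 37.7%. For the merged list the count was 78 (96.3%), beside 85.9%. All these intervals cover counting error only, and members whose windows overlap are not independent: the 81 genes stand at 56 loci, 14 of which hold between 2 and 6 members. Windows were of similar length in both sets, with a median of 115 kb for members and 117 kb for all protein-coding genes. Replicate 2 peaks per 100 kb of window had a median of 5.33 over members and 3.97 over all protein-coding genes.

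**Figure D1:**
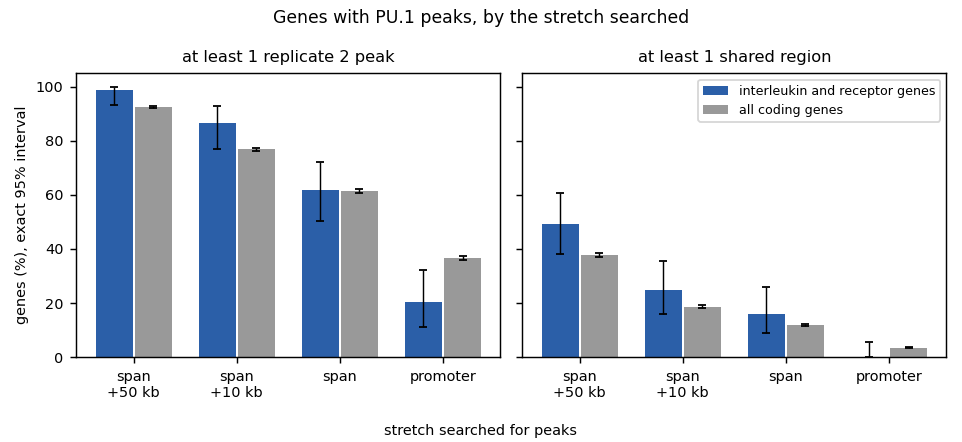
Share of genes (%) with at least 1 replicate 2 peak (left) or shared region (right) in the gene span plus 50 kb, the span plus 10 kb, the span alone, or a RefSeq promoter of 300 bases, for the interleukin and receptor genes (blue) and all protein-coding genes (grey). Error bars are exact 95% intervals; in the wide windows the blue bars lie above the grey ones, for replicate 2 the spans are level (61.7% and 61.4%), and at promoters blue is lower (20.3% and 36.6%).

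The members' shares were above those of all protein-coding genes in the windows with flanks, and for replicate 2 peaks they were level inside spans and below at promoters. These are counts set side by side, with no test. Within 10 kb of the span, 70 of 81 members had a replicate 2 peak (86.4%), beside 76.9% of all protein-coding genes, and 20 had a shared region (24.7%), beside 18.6%. RefSeq promoters, 250 bases before to 50 after a start, were at hand for 64 members, and 13 of these overlapped a replicate 2 peak (20.3%, exact 95% interval 11.3 to 32.2), beside 36.6% of 17492 protein-coding genes. None of the 64 overlapped a shared region or a replicate 3 peak. Such a count allows a share of up to 4.69% when 3 counts are taken as the limit of a count of 0. By the exact 95% interval it allows 5.60%. Il7, whose shared region crosses an end of its span, had no promoter at hand and is not among the 64. Nor are Il10ra, Il10rb and Il12rb1, where a replicate 2 peak crosses an end of the span. The part of members without a promoter at hand in the share of 20.3% was not tested. Over all genes with a promoter at hand the shares were 3.47% for shared regions and 2.91% for replicate 3 peaks, so a deficit of shared promoters was not detectable with so few members. Inside gene spans, a shared region was found in 13 members (16.0%, 8.83 to 25.9), beside 12% of all protein-coding genes, and a replicate 2 peak in 50 (61.7%), beside 61.4%.

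The 13 members with a promoter peak were Il15ra, Il16, Il18, Il1a, Il1b, Il21r, Il2ra, Il33, Il3ra, Il4, Il4i1, Il4i1b and Il5ra. The replicate 2 scores at those promoters ran from 87.16 at Il1a, which encodes an alarm cytokine of the IL-1 family, to 1834 at Il4i1b. Il21r, the receptor chain for interleukin 21, followed at 1583 and Il18, which encodes an inducer of interferon gamma, at 1389. The peak at the Il4i1b promoter also overlaps Atf5 and Nup62, and the merged interval at the Il18 promoter also overlaps Bco2. The promoters of Il5ra, Il2ra, Il18 and Il1b are printed to show what sequence lies under such peaks, for 2 receptor chains and 2 ligands. Each is the 250 bases before the start (RefSeq, GRCm38.p6), 5′ to 3′ on the gene's strand. Capitals mark GGAA on the printed strand or TTCC, which is GGAA on the other strand.
Il5ra, chr6:106749038-106749287, minus strand: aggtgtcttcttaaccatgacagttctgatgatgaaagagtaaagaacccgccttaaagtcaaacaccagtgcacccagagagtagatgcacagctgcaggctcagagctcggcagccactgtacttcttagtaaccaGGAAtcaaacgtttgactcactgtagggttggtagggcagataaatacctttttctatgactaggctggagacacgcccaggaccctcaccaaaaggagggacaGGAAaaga
Il2ra, chr2:11642542-11642791, plus strand: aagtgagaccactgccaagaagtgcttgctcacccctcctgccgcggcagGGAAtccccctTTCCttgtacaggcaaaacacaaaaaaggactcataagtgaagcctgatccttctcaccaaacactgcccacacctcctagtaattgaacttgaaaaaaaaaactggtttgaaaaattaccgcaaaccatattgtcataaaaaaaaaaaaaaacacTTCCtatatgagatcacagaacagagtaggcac
Il18, chr9:50554450-50554699, plus strand: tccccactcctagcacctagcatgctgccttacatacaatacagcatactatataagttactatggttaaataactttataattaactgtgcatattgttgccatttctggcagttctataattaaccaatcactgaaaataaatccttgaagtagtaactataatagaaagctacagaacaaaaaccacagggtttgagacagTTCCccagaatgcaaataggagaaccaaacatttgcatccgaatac
Il1b, chr2:129371140-129371389, minus strand: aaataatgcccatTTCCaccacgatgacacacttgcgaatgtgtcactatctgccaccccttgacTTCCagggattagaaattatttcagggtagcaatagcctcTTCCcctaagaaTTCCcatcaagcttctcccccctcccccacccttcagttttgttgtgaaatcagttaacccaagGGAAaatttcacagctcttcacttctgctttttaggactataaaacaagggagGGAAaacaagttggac

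The 4 promoters carried unequal numbers of the core and the peak scores did not follow them. Each score belongs to a whole peak that reaches beyond the 250 bases searched, so these counts cannot say what the peak holds. Il5ra, the IL-5 receptor α chain, had 2 matches under a peak scored 1158, and Il18 had 1 match at 1389. Il2ra, the high-affinity chain of the IL-2 receptor, had 3 matches at 429. Il1b, the main inflammatory IL-1, had 6 matches at 288, and the last bases printed reach into the RefSeq span of that gene, which has an earlier start. The 250 bases of the Il21r promoter held no GGAA on either strand, under a peak of 1583. That peak is 2913 bp wide, and the rest of it was not searched. A core of 4 letters is common: 93.2% of the 21263 promoter sequences of protein-coding genes held it in these 250 bases, and 74 of 79 member promoters did.

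The longer motif GAGGAAGT, searched on both strands, was in 2.23% of all those promoters, in 3.91% of those under a replicate 2 peak and in 1.33% of the others. It was in 2 of 79 member promoters, several members having more than 1, and 1 of the matches lay under a peak. That one belongs to Il4i1, a secreted amino acid oxidase of B cells and phagocytes, and the 30 bases around it (chr7:44836144-44836173, plus strand, inside the span of Il4i1b) are shown with the match in capitals, as it reads on the other strand.
Il4i1: tagactgagttACTTCCTCctgtgatattt

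The match lies 133 to 126 bases before the start, under a replicate 2 peak scored 244.5 with no replicate 3 peak. The composite motif GGAANNGAA, which joins the core to a site for interferon regulatory factors and always contains GGAA, was in 9 of 79 member promoters (11.4%) and in 6.64% of all. Of the 14 member promoters under a peak, 1 held it, that of Il4, the signature cytokine of type 2 T helper cells (score 102.5). These matches describe letters within 250 bases. Sequence under the regions away from promoters was not used here.

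The 42 shared regions given to members went to 31 genes, at most 3 to a gene. Their replicate 3 scores ran from 71.6 to 2702 with a median of 130, close to the 136 of all shared regions, and 15 of them scored under 100. With scores of at least 100 in both libraries, 31 of 81 members had a shared region in the window (38.3%), beside 29.5% of all protein-coding genes. In replicate 2, 18 of 42 reached 3100 (42.9%), as did 42.0% of all shared regions. Over the 42 regions the scores of both libraries ranked together (Spearman rho 0.74), and over the 24 below 3100 in replicate 2 they hardly did (0.15). These are descriptions across regions that share 2 libraries. Of the 42, 14 overlapped a member's span, 9 lay within 10 kb of it and 19 lay farther out, up to 45.0 kb.

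**Figure D2:**
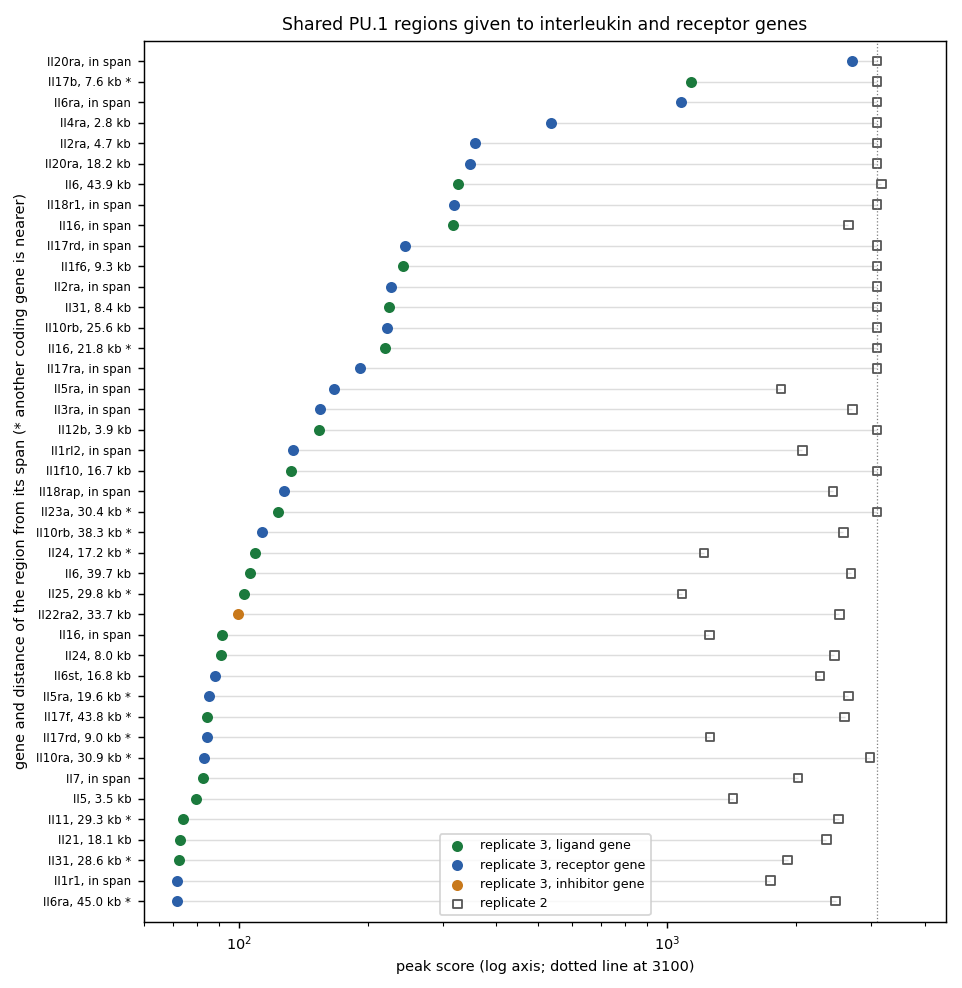
Score of each of the 42 shared regions in replicate 2 (open squares) and replicate 3 (filled points, coloured by the role of the gene) on a log axis, ordered by replicate 3 score. Labels give the gene, the distance from its span and, by an asterisk, regions with a nearer protein-coding gene; the region inside Il20ra scores 2702 in replicate 3, and 18 regions stand at or above 3100 in replicate 2.

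A member was the nearest of all protein-coding genes for 29 of the 42 regions (69.0%, exact 95% interval 52.9 to 82.4). These 29 had a median replicate 3 score of 167, and the 13 with a nearer gene had 85.3. Counted this way, 25 of 81 members were nearest to a shared region (30.9%, 21.1 to 42.1), beside 17.7% of all protein-coding genes. For replicate 2 peaks the counts were 67 of 81 (82.7%), beside 76.0%. Members also had slightly more room around them, with a median of 54.0 kb, in 1 kb steps, nearest to the gene and within 50 kb of it, beside 46.0 kb. Per Mb of that room there were 3.95 shared regions at members and 3.05 at all protein-coding genes, and the part of the room in the difference was not tested.

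The counts for ligand and receptor genes were set side by side, with no test between them. A shared region lay in the window of 19 of 37 ligand genes (51.4%, exact 95% interval 34.4 to 68.1) and of 18 of 38 receptor genes (47.4%, 31.0 to 64.2). Inside the span it lay in 2 of 37 ligand genes (5.41%, 0.661 to 18.2) and in 11 of 38 receptor genes (28.9%, 15.4 to 45.9), beside 12% of all protein-coding genes. The 2 intervals overlap in part, which is no test of a difference between the roles. At least 1 replicate 2 peak lay in the span of 16 of 37 ligand genes (43.2%) and 31 of 38 receptor genes (81.6%), beside 61.4% of all protein-coding genes. Span lengths differ between the roles, and their part in these counts was not tested.

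Among receptors, the chains for the IL-6, IL-20 and IL-4 groups had the best scores. Il20ra encodes the chain through which IL-19, IL-20 and IL-24 act, and its region inside the span (chr10:19737791-19739169) scored 3100 in replicate 2 and 2702 in replicate 3. In replicate 3, 0.276% of all peaks scored as high. A further region 18.2 kb before the start scored 3100 and 347. Il20ra thus had 2 regions at 3100 in replicate 2, while Il20rb, its partner chain, had 4 replicate 2 peaks of at most 481 and no replicate 3 peak.

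Il6ra, the ligand-binding chain of the IL-6 receptor, had a region inside its span near the start (chr3:89910723-89911957), with scores of 3100 and 1077. Its other shared region was weak in replicate 3 (71.6), lay 45.0 kb beyond the end, and was nearer to She. Il6st, the signalling chain gp130 that IL-6 shares with IL-11 and other cytokines, had a region 16.8 kb before its start with 2283 and 87.9. Il6 itself, the cytokine, had a pair of regions far before its start, at 43.9 kb (3172 and 324) and 39.7 kb (2692 and 106), with Il6 as the nearest protein-coding gene of both. All 3 genes, Il6, Il6ra and Il6st, thus had shared regions, none of them at a promoter. Il11 had its region, 2519 and 74.1, at 29.3 kb before its own start. That region overlapped Ube2s, and its replicate 3 peak lay 123 bp from Ube2s. Il11ra1 had no replicate 3 peak and a best replicate 2 score of 1090, at a peak nearer to Arid3c.

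Il4ra, the receptor chain shared by IL-4 and IL-13, had a region 2.85 kb beyond its end (chr7:125582321-125584159) with 3100 and 536. Its neighbour Il21r had 9 replicate 2 peaks, the best at 1718, and was given none in replicate 3. The IL-13 receptor genes on chromosome X, Il13ra1 and Il13ra2, had best replicate 2 scores of 2244 and 121 and no replicate 3 peak. Their ligands Il4 and Il13 each had 1 replicate 2 peak, scored 103 and 449, the latter nearer to Rad50.

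Among the IL-2 receptor genes, Il2ra had 13 replicate 2 peaks, 11 of which had it as nearest protein-coding gene, and 2 shared regions. One lay 4.74 kb before the start (chr2:11636558-11638052; 3100 and 357) and the other inside the span (chr2:11661297-11663297; 3100 and 226). Il2rb, the signalling chain shared with IL-15, had 7 replicate 2 peaks of at most 632 and no replicate 3 peak within 50 kb. A shared region with 3100 and 123 lay 59.7 kb from Il2rb, outside its window and nearer to Rac2. Il15ra next to Il2ra had 6 replicate 2 peaks, the best at 1606 but nearer to Ankrd16 and Fbh1, and was given none in replicate 3.

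**Figure D3:**
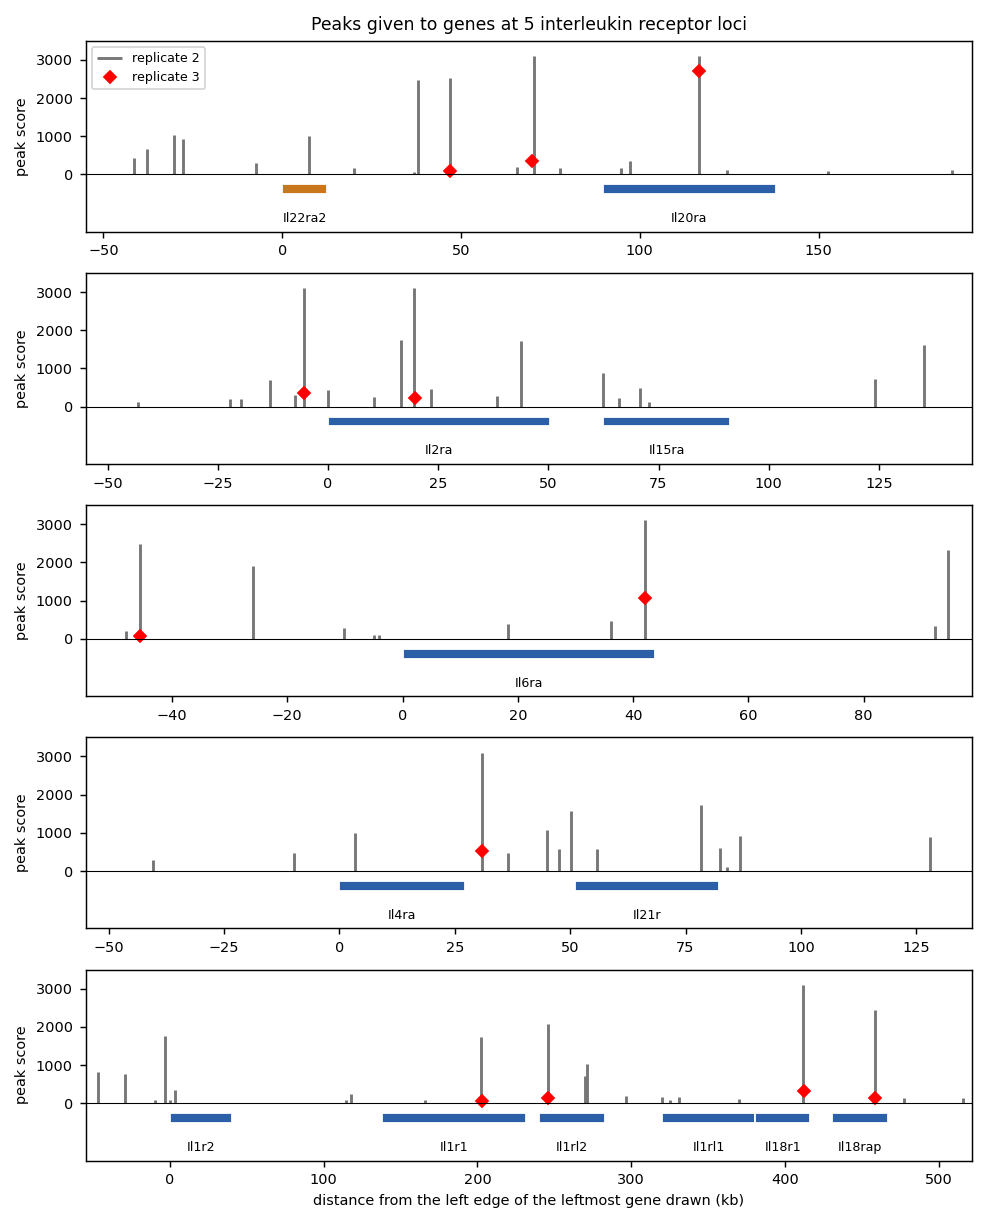
Peaks given to genes at 5 receptor loci, by distance (kb) from the left edge of the leftmost gene drawn. Grey lines give the replicate 2 score of each peak, red diamonds the replicate 3 score, and bars below the axis the gene spans (blue receptor, orange inhibitor); replicate 3 peaks sit on tall replicate 2 peaks, and the tallest red diamond, 2702, is inside Il20ra.

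The α chain genes for IL-3 and IL-5 both had a shared region in the span. At Il3ra, the IL-3 receptor α chain, the scores were 2712 and 154, and at Il5ra they were 1849 and 167. The common β chain gene Csf2rb, which pairs with both, is no member by its symbol, and the best score in its window was 491 in replicate 3. Of the ligands, Il5 had a region 3.55 kb beyond its end (1427 and 79.4). Il3, a growth factor of early blood cells, had 5 replicate 2 peaks of at most 318 and none in replicate 3.

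Genes of the IL-10 receptor stood in the windows most crowded with peaks. Il10ra had 20 replicate 2 peaks in its window, or 17.3 per 100 kb, a density that 0.238% of all protein-coding genes reach, and Il10rb had 18, or 15.0 per 100 kb. Of those given to them, 7 of 20 and 9 of 18 had the member as nearest gene, so much of the crowding lies nearer to neighbours. Il10rb had a region 25.6 kb from its span with 3100 and 222, and a further one nearer to Ifnar2 with 2584 and 113. Il10ra had 1 shared region, weak in replicate 3 (82.8) and nearer to Tmprss13. A broad replicate 2 peak 3.02 kb from the Il10ra span (chr9:45272169-45276173, 4005 bp wide) stood at 3100 without a replicate 3 peak. It was the 1 exception among the 19 member peaks at or above 3100 and was picked out after its value was seen. The ligand gene Il10, an anti-inflammatory cytokine also made by B cells, had 3 replicate 2 peaks and none in replicate 3, and the best, 624, was nearer to Mapkapk2. In its gene cluster, 2 regions fell to Il24, with 109 and 90.9 in replicate 3, and the one at 109 was nearer to Fcmr.

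**Figure D4:**
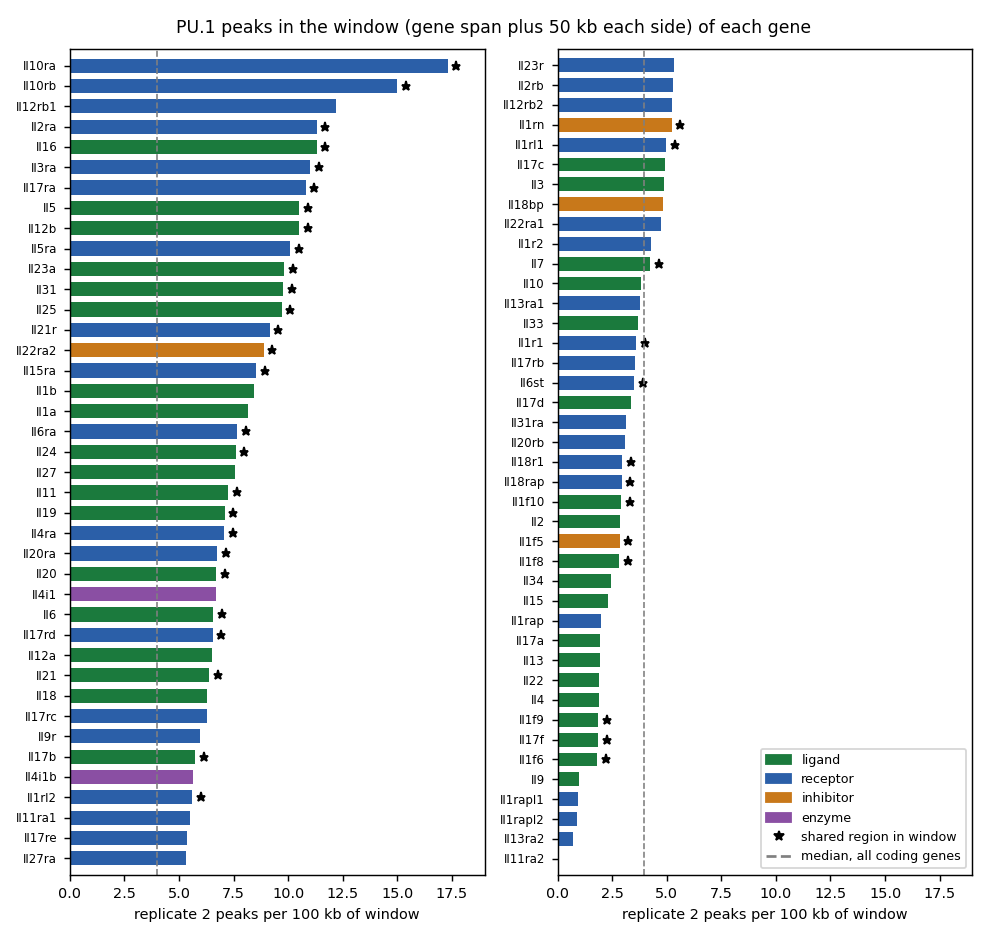
Replicate 2 peaks per 100 kb of window for each of the 81 genes, sorted from the upper left to the lower right and coloured by role. Stars mark genes with a shared region in the window, the dashed line is the median of all protein-coding genes (3.97), and Il10ra leads with 17.3 while Il11ra2 has 0.

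The IL-1 receptor cluster on chromosome 1 holds 6 members over 467 kb and had 4 shared regions, all inside spans. Il18r1, a chain of the IL-18 receptor, had the best of them (chr1:40495928-40497711; 3100 and 319), and its partner Il18rap had 2447 and 128. Il1rl2, the IL-36 receptor, had 2073 and 134, and Il1r1, the IL-1 signalling receptor, had 1745 and 71.7. The decoy receptor gene Il1r2 had 6 replicate 2 peaks of at most 1749, and Il1rl1, the IL-33 receptor, had 4 of at most 167, with no replicate 3 peak given to either. Il1rap, the accessory chain that IL-1, IL-33 and IL-36 receptors share, had 5 replicate 2 peaks of at most 356 over a span of 149 kb.

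Of the 8 IL-1 ligand genes, 2 were given a shared region (25%, exact 95% interval 3.19 to 65.1), beside 38.3% of all members. A region in several windows is given to 1 gene only. A shared region lay in the window of 4 of the 8 (50.0%), beside 49.4% of all members and 37.8% of all protein-coding genes. Il1a and Il1b together had 14 replicate 2 peaks and no replicate 3 peak. At Il1b the best scores were 2309, at 8.73 kb before the start, and 1512, at 1.79 kb before it. At Il1a the best was 2720, at 9.26 kb before the start. Of all replicate 2 peaks 8.24% had a replicate 3 peak, as did 8.19% of the 513 given to members. Those shares cover peaks of every score, and shared regions were mostly strong in replicate 2. Their lower quartile there was 2087 over all shared regions, beside a median of 232 for all replicate 2 peaks. No share was computed for peaks as strong as the best of Il1a and Il1b, so their lack of a replicate 3 peak was not tested. In the second IL-1 cluster, 2 regions stood between genes, at 9.33 kb from Il1f6 (3100 and 242), which encodes IL-36α, and 16.7 kb beyond the end of Il1f10 (3100 and 132). The replicate 3 peak of the first lay nearer to Il1f9, the IL-36γ gene, than to Il1f6, so peak and region fell to different genes. Il1rn, the IL-1 receptor antagonist, had 4 replicate 2 peaks, the best, 1378, nearer to Psd4, and was given no shared region. Il18 had 8, the best, 1940, nearer to Bco2, and Il33 had 5 of at most 496, both without a replicate 3 peak.

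Ligands of the IL-6 and IL-12 group were given shared regions at 5 of 7 genes, Il6, Il11, Il12b, Il23a and Il31. That is 71.4% (exact 95% interval 29 to 96.3), an interval that includes the 40.5% of all ligand genes. By window the count was also 5 of 7, beside 37.8% of all protein-coding genes. Il12b, the p40 subunit common to IL-12 and IL-23, had 12 replicate 2 peaks, 10 of them with Il12b as nearest gene. Its shared region lay 3.92 kb before the start (chr11:44394965-44396142; 3100 and 154). Il31, an itch-inducing cytokine of T cells, had a region 8.36 kb beyond its end with 3100 and 224. The Il23a region (3100 and 124) lay 30.4 kb away and nearer to Apof. Il12a and Il27 had best replicate 2 scores of 1806 and 589, the latter nearer to Cln3. A shared region with 2319 and 165 lay outside the Il12a window, 56.3 kb away and nearer to Schip1. None of the receptor genes Il12rb1, Il12rb2 and Il23r had a shared region in the window, and their best replicate 2 scores were 2108, 983 and 322. The first of these peaks overlapped Mast3 and the second lay nearer to Serbp1. Among peaks with the member as nearest gene, the best scores were 235 for Il12rb1 and 529 for Il12rb2.

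Ligands that use the common γ chain, taken with Il13, were given shared regions at 2 of 7 genes (28.6%, exact 95% interval 3.67 to 71.0), beside 38.3% of all members. By window the count was also 2 of 7, beside 37.8% of all protein-coding genes. Il7, the growth factor of B cell precursors that these cultures receive in their medium, had a region across one end of its span (chr3:7612424-7614329) with 2024 and 82.4. Its strand is not in the promoter table, so that end was not assigned to the start or the finish of the gene. Il21, a T cell factor acting on B cells, had a region 18.1 kb beyond its end with 2359 and 72.9. Il15, which sustains natural killer cells, had 4 replicate 2 peaks of at most 459 over a span of 71.6 kb. Il2 had 3 of at most 608 and Il9 had 1 at 167, nearer to Slc25a48. The scores of Il7 and Il21 in replicate 3 lie near the lowest of that list, 70.0.

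In the IL-17 branch, Il17ra, the receptor chain used by most IL-17 cytokines, had a region inside its span (chr6:120469451-120471522) with 3100 and 192. Il17rd had one at 3100 and 244, centred 6285 bp after its start, and a weaker one in Arhgef3 (84.3 in replicate 3). Il17rb, Il17rc and Il17re had best replicate 2 scores of 373, 498 and 509, each at a peak nearer to another gene, and no shared region. Of the 6 ligand genes, Il17b, Il17f and Il25 were given a region (50.0%, exact 95% interval 11.8 to 88.2), beside 38.3% of all members. By window the count was also 3 of 6, beside 37.8% of all protein-coding genes. Each of the regions given had a nearer gene. The one given to Il17b scored 3100 and 1138, overlapped Pcyox1l and lay 7.57 kb away from Il17b. Il17a, the founding member, had 2 replicate 2 peaks of at most 137 and no merged interval in its window.

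Il16 and Il34 stand outside those families. Il16, a chemoattractant released from a larger precursor, was given 23 replicate 2 peaks, the highest number of any member, and 3 shared regions. Those inside its span scored 2655 and 316 at one site and 1258 and 91.2 at the other, and the third, nearer to Cfap161, had 3100 and 220. Il34, which shares its receptor with the macrophage growth factor CSF-1, had 4 replicate 2 peaks, the best, 1109, nearer to Cog4 and Sf3b3. Of the inhibitor genes, Il22ra2, a soluble trap for IL-22, was given a region 33.7 kb from its span (2530 and 99.7).

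Of the 5 members with the fewest replicate 2 peaks per 100 kb, 3 were on chromosome X. Il1rapl1 and Il1rapl2, synaptic relatives of the IL-1 receptor with spans of 1375 and 1278 kb, had 14 and 12 replicate 2 peaks, or 0.949 and 0.871 per 100 kb, and no shared region. The 4 members on X had a median of 0.910 per 100 kb, and all X-linked protein-coding genes had 1.86, beside 4.22 for autosomal ones. Il11ra2 was the 1 member without a peak of any list. It is a close copy of Il11ra1, how reads with several matching places were treated is not stated in the sources, and the part of such reads in this count was not tested.

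Other genes of interleukin signalling were counted in the same windows. All 28 had a replicate 2 peak, beside 92.6% of all protein-coding genes, and 15 had a shared region, beside 37.8%. Best replicate 3 scores were 1045 at Lifr, a partner chain of gp130, and 600 at Irak3, a brake on IL-1 receptor signalling. Next came 491 in the windows of both Csf2rb and Csf2rb2, and 311 at Myd88, the adaptor of the IL-1 receptor pathway. Il7r, the IL-7 receptor chain, had 3 shared regions with a best replicate 3 score of 194. Il2rg, the common γ chain, had 2 replicate 2 peaks of at most 648 and Jak3, the kinase bound to it, had 7 of at most 719, both without a shared region.

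The window edge bears on these counts. The farthest shared region inside was that of Il6ra at 45.0 kb. Outside lay regions at 56.3 kb from Il12a and 59.7 kb from Il2rb, which have no shared region within 50 kb. Genes that have one inside had further ones at 50.3 kb from Il10rb (3100 and 113), 54.1 kb from Il7 (3169 and 318), 55.7 kb from Il4ra (957 and 70.8) and 59.6 kb from Il6ra (3100 and 385). For each of these outside regions another protein-coding gene lies nearer than the member. Such genes are Schip1 for Il12a, Rac2 for Il2rb, Ifnar2 for Il10rb, Zc2hc1a for Il7, Nsmce1 for Il4ra and Atp8b2 for Il6ra.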

How the data were processed

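PU.1 ChIP-seq peak lists of 2 induced libraries and 1 merged list were used. Per the submitters' processing notes, reads were handled with Trim Galore, Bowtie and MACS 1.4.1 on mm10; not given in the sources used here: whether the input served as control, how multiply matching reads were treated and how the merged list was made. The score deposited by the authors with each peak was read as minus 10 times the log10 of its p-value, has no normalization between libraries, and served to describe peaks within a list. The deposited score of the merged list is 0 throughout. Read depth was not used here.

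Peaks sharing 1 bp were overlapping. Genes came from RefSeq (GRCm38.p6), 1 span per gene, without exons, and promoters and strand were matched for 64 of 81 members. Positions are 1-based. Ties went to the first symbol in alphabetical order (2 replicate 2 peaks, between Il4i1 and Il4i1b). Shares carry exact Clopper-Pearson 95% intervals (scipy 1.17.1, pandas 2.3.3); no test was run, since the design has 1 group with peaks. The overlap and assignment steps were checked on simulated peaks. Named are the 12 members with the best replicate 3 scores, the 6 with most replicate 2 peaks, those with a shared region at a promoter or gene end, those without peaks, the extremes of density and a list of 20 cytokine and receptor genes, with others added to complete a receptor group. Members and lists were chosen with earlier results of these data known.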

Additional observations from a re-analysis of the deposited data

How the results depend on the processing

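All counts depended on the window and the list. With 10 kb flanks, 20 members had a shared region and 23 regions were given to members. With the gene span alone, 13 members had a shared region, 50 had a replicate 2 peak, and 14 regions were given. With 100 kb flanks, 68 regions were given to members, and 54 members (66.7%) had one, beside 52.4% of all protein-coding genes. Scores of at least 100 left 27 regions, and 31 members had one in the window, beside 29.5% of all protein-coding genes. With the merged list in place of the shared regions, 78 members had an interval and 372 intervals were given. Requiring a member to be the nearest of all protein-coding genes left 25 members with a shared region. Leaving out 1 library, so that the other list stands alone, members with a region ranged from 40 (replicate 3 alone) to 80 (replicate 2 alone) and the intervals given from 42 to 513; the count of members with a replicate 2 peak became 40 with replicate 3 peaks. The remaining alternatives moved no count by more than 1.5 times. In these steps fewer or more peaks and bases enter by construction. No paired analysis was possible because 1 group has peak lists. Replicate 3, with 6169 peaks, limits which regions can count as shared.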
